A study of Mus musculus with 6 samples.

Results

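PB119 is a mouse lung cancer cell line in which c-Myc was mapped by chromatin immunoprecipitation and sequencing (ChIP-seq) with the c-MYC antibody D3N8F. All 13527 c-Myc peaks that the authors listed for PB119 are described here, of 26525 peaks listed for the 3 lines of the series. The ChIP library was set against a PB119 input library, sheared chromatin sequenced with no antibody. Both came from fixed cells, with 20000000 cells per ChIP, 1% formaldehyde and 10 minutes of fixation stated in the protocol, and the labels name no genotype, treatment or tumour of origin for the line. Filtered depth was 40726886 tags for the ChIP and 37979638 for the input. There was 1 library of each kind, so no value has an error between replicates, and the intervals given cover counting error only.

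c-Myc contacts DNA through a basic helix-loop-helix domain and does so paired with its partner Max. The pair recognises E-boxes, of which CACGTG is the canonical form and CACGCG a common variant, and it is found mostly at promoters rich in CpG dinucleotides that are already active. Its best known targets serve ribosome production, protein synthesis, nucleotide synthesis and growth, and MYC family genes are often amplified in lung cancer.

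Promoter windows of 7 genes show what lay under leading summits. They are 300 bases long, from 250 bases before to 50 bases after an annotated start, and come from RefSeq on GRCm38.p6, the assembly of the peak coordinates. Each is written 5′ to 3′ on the strand of its gene, and capitals mark CACGTG and CACGCG, the second also where it reads CGCGTG on the opposite strand. The genes were picked after their values were seen, as leading genes whose window held the summit: 6 with a motif in different settings, and 1 with none.

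Rplp0: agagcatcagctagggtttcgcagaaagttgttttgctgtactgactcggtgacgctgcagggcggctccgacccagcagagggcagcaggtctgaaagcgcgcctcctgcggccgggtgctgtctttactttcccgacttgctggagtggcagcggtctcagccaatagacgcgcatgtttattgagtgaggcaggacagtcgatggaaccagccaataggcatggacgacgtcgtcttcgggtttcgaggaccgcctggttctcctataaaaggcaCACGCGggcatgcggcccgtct

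Pigw: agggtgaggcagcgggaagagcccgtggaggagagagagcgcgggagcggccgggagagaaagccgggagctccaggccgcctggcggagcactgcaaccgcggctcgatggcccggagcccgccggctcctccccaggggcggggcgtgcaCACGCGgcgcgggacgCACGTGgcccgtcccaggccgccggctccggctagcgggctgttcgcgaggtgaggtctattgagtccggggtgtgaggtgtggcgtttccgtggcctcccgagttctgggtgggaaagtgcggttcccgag

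Timm9: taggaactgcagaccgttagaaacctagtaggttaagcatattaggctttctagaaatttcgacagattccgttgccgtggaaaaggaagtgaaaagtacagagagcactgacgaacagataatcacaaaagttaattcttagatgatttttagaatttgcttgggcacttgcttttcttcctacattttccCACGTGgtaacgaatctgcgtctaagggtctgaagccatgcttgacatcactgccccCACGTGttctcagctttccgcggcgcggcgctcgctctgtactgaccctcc

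Cdk7: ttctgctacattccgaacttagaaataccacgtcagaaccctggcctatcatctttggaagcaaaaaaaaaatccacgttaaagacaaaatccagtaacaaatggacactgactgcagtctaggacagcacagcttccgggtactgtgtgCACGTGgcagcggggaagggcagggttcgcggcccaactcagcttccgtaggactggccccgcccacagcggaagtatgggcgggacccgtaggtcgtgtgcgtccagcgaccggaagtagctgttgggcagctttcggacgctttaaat

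Xpot: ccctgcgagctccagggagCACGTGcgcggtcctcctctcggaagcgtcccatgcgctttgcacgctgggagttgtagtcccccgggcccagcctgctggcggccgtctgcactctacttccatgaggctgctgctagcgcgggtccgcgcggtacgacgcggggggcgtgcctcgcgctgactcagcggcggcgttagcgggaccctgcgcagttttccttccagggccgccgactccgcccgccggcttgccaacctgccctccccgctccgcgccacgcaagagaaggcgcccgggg

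Pla2g6: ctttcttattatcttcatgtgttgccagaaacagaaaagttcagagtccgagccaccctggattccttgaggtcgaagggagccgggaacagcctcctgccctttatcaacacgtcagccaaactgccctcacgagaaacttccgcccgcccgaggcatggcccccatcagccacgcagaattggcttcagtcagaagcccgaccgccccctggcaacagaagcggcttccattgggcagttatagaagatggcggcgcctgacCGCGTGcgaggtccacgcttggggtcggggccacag

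Nop58: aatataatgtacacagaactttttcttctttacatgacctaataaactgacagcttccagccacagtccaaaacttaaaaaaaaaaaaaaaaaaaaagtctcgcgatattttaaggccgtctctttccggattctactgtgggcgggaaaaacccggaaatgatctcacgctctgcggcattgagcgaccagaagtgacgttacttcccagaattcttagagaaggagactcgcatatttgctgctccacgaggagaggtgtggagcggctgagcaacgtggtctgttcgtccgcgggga

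Rplp0 encodes P0, the base of the stalk of the large ribosomal subunit, and its window lies on the plus strand at chr5:115559217-115559516. The c-Myc summit held 166 ChIP fragments against an input background of 1.98 fragments, at base 271 of the window, 10.5 bp from the centre of its single CACGCG. Pigw, an acyltransferase gene of glycosylphosphatidylinositol anchor synthesis, has its window on the minus strand at chr11:84880146-84880445. Both motifs lie there near the summit, which held 198 fragments against 2.98 and stood 7.5 bp from the nearer motif. This summit also lay within 1000 bp of the start of Myo19, a mitochondrial myosin gene on the opposite strand.

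Timm9 encodes a small chaperone of mitochondrial protein import, and its window is on the minus strand at chr12:71136626-71136925. Of its 2 copies of CACGTG, the one nearer to the gene lay 1.5 bp from a summit of 167 ChIP fragments against 2.51 of input. Cdk7, the kinase of the CDK-activating complex and of TFIIH, has its window at chr13:100730893-100731192 on the minus strand. Its summit of 162 fragments against 2.47 was 8.5 bp from the single CACGTG. Xpot, which exports transfer RNA from the nucleus, has its window at chr10:121626283-121626582 on the minus strand, and its summit of 205 fragments against 3.47 was 27.5 bp from CACGTG. Pla2g6, a phospholipase A2 gene with its window at chr15:79328322-79328621 on the minus strand, had 184 fragments against 2.96 at a summit 25.5 bp from the motif. Nop58, a core protein of box C/D small nucleolar ribonucleoproteins with its window on the plus strand at chr1:59684756-59685055, had 189 fragments against 3 with neither motif in its 300 bases. A motif match is a string of letters in a window, and no match says only that these letters are not in that window.

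The ChIP stood far above input at most listed sites while the input itself stayed near a few fragments. The median summit held 43 ChIP fragments (quartiles 34 to 60, range 19 to 282) over an input background of 3 fragments (quartiles 2.65 to 3.74, range 1.98 to 92). The authors' fold, the ChIP pileup over the input background with 1 added to both, had a median of 9.8 (quartiles 7.72 to 13.8) and reached 60.9. It was 20 or more at 1300 peaks (9.61%), 40 or more at 55, and below 5 at 207. Peaks were narrow, with a median length of 286 bp (quartiles 200 to 462), and 324 of them (2.4%) spanned 1000 bp or more. The shortest were 141 bp, the modelled fragment length.

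Higher peaks were longer, and height and length went with fold. Across the 13527 peaks, which come from 1 library and are not independent, Spearman's rho with fold was 0.82 for ChIP fragments, 0.67 for length and -0.32 for background. Fold is computed from fragments and background, so its relation to both is partly set by the formula, and rho between fragments and background was 0.21. The 10% of peaks with the highest fold had a median of 102 ChIP fragments over 2.89 of input and a length of 638 bp. The 10% with the lowest fold had 33 fragments over 5 of input and a length of 192 bp. Background was within 0.02 of a whole number of fragments at 4202 peaks (31.1%). Of these, 430 were at 2 fragments, which takes in peaks at the genome-wide level of 1.98, an average and not a local count. Background was 3 by the same rule at 1269 peaks, where ChIP fragments ranged from 21 to 189 with a median of 42. A count of 3 has a Poisson 95% interval of 0.619 to 8.77 fragments, so a fold that rests on it is much less certain than the ChIP count above it. The interval is that of a count. The background used is the largest of several levels and never falls below the genome-wide 1.98 fragments.

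**Figure D1:**
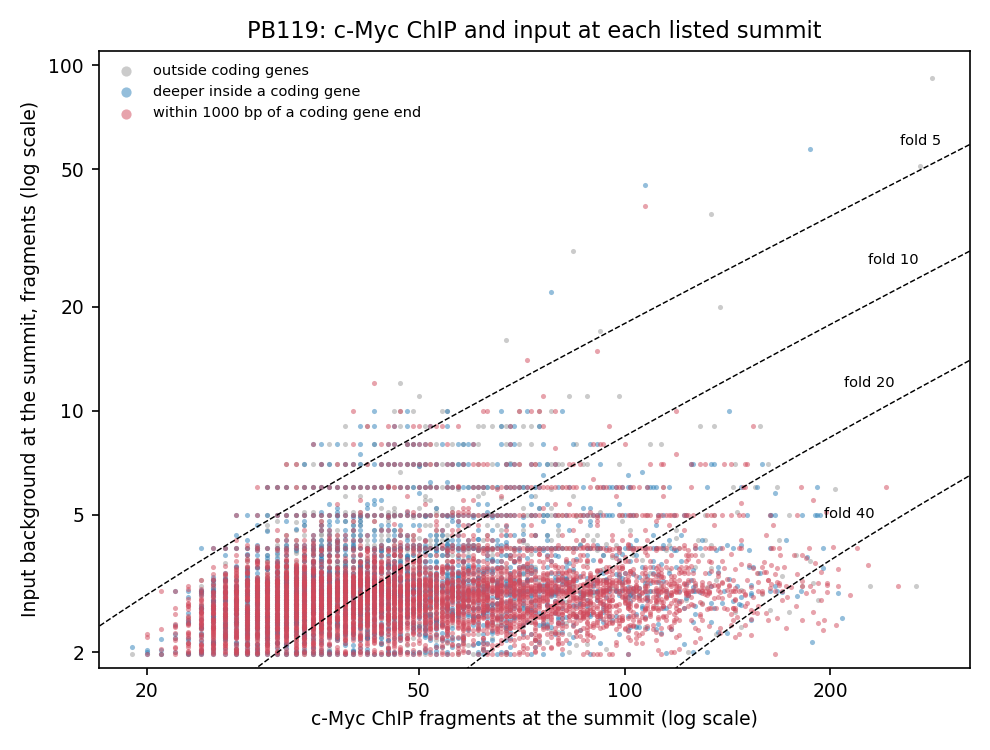
Points show the 13527 PB119 summits, with ChIP fragments on the x axis and input background in fragments on the y axis, both on log scales. They are coloured by position relative to protein-coding genes, and summits of the same values and position class share a point. Dashed lines mark authors' folds of 5, 10, 20 and 40. Most points lie between 2 and 5 input fragments and spread along the x axis, and a few peaks with up to 92 input fragments stand above the rest at low fold.

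A small set of sites carried a high input as well. Background was over 2 times the genome-wide level of 1.98 fragments at 3082 peaks (22.8%), over 3 times at 727 (5.37%), over 5 times at 49 and over 10 times at 9. The highest was also the longest peak of the list and the one with most ChIP fragments, at chr17:39843066-39846678, with 282 ChIP fragments against 92 of input and a fold of 2.84. It lies 2071 bp from Rn18s-rs5, a pseudogene related to 18S ribosomal RNA, and the peak beside it, at chr17:39847765-39848832 within the noncoding gene AY036118, had 271 against 51. Another 3 of the 8 peaks with the highest background lay in Sfi1, a centrosome protein gene on chromosome 11, with 187 fragments against 57, 107 against 45 and 107 against 39. The genes Pisd-ps1 and Pisd-ps2, transcribed pseudogenes, lay 122 and 273 bp from 2 of these 8 summits. Reads from near-identical copies can pile up at such places, and how the authors placed reads with several matches is not given in the sources used here. All 8 peaks had folds between 2.19 and 4.88.

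Peaks were spread over all autosomes and were sparse on chromosome X. Chromosome 11 had the most, with 1371 peaks or 85.2 per 100 protein-coding genes, and chromosome X had 191 or 19.8 per 100. No peak was listed on chromosome Y. The median summit on chromosome X held 35 ChIP fragments. Input background at the summits was 1.76 times the genome-wide level on chromosome 8 (quartiles 1.51 to 2.02), 1.60 on chromosome 11, 1.37 on chromosome 12 and 1.24 on chromosome X. On each other chromosome the median was between 1.49 and 1.54. Folds hardly followed this, with a median of 9.44 on chromosome 8, 9.9 on chromosome 11, 10 on chromosome 12 and 9.56 on chromosome X. The part of input level in the number of peaks on a chromosome was not tested.

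**Figure D2:**
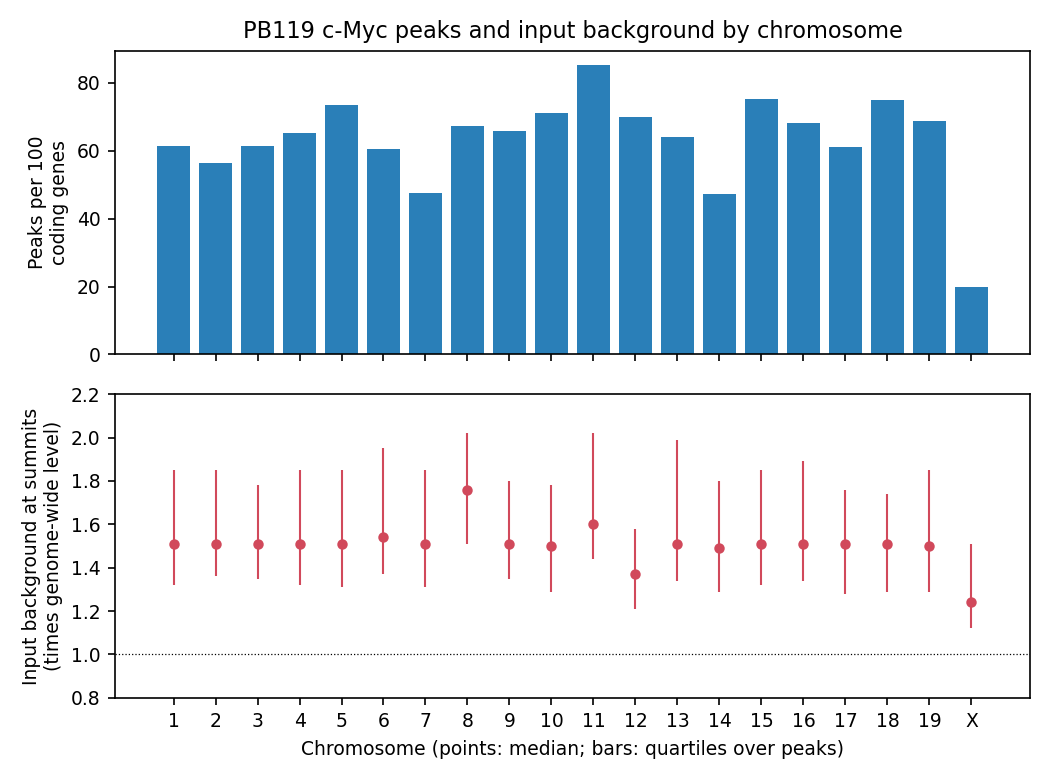
The upper panel gives PB119 c-Myc peaks per 100 protein-coding genes on each chromosome, and the lower panel the input background at those summits relative to the genome-wide level (point, median; bar, quartiles over peaks). Chromosome 11 has the tallest bar at 85.2 and chromosome X the shortest of those drawn at 19.8, with chromosome Y, which had no peak, left out, and the background is highest on chromosome 8 at 1.76.

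Within 1000 bp of an annotated end of a protein-coding gene lay 8065 summits (59.6%, Wilson 95% interval 58.8 to 60.4), in windows that cover 2.93% of the effective genome. With windows of 500 bp the share was 49.6%. Another 3582 (26.5%) lay deeper inside a gene, where 36.6% of the genome is, and 1880 (13.9%) lay outside, where 60.5% is. The ends used are the outermost annotated ones, so a summit at a start farther inside a gene counts as deeper inside. Peaks at gene ends were longer, with a median of 334 bp and a median fold of 10.5, against 244 bp and 9.15 deeper inside and 228 bp and 8.63 outside. The share at gene ends rose along the list, to 74.6% in the top 10% by fold, against 41.9% in the bottom 10%. The share outside genes was 6.73% in the top 10% and 23.7% in the bottom 10%.

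Where the annotation gives the strand, the end in question was nearly always the start. Of 5490 protein-coding genes over 5000 bp long with no other coding gene end within 2000 bp of their far end, 2030 (37%) had a summit at the start, 32 (0.583%) at the far end and 16 at both. A total of 7430 summits lay within 1000 bp of an annotated start, and 3298 of them (44.4%) were within 100 bp. Their median position was 8 bp downstream, with quartiles at 98 bp upstream and 169 bp downstream. The number downstream was 3897 (52.4%), and the number upstream was 3533 (47.6%).

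**Figure D3:**
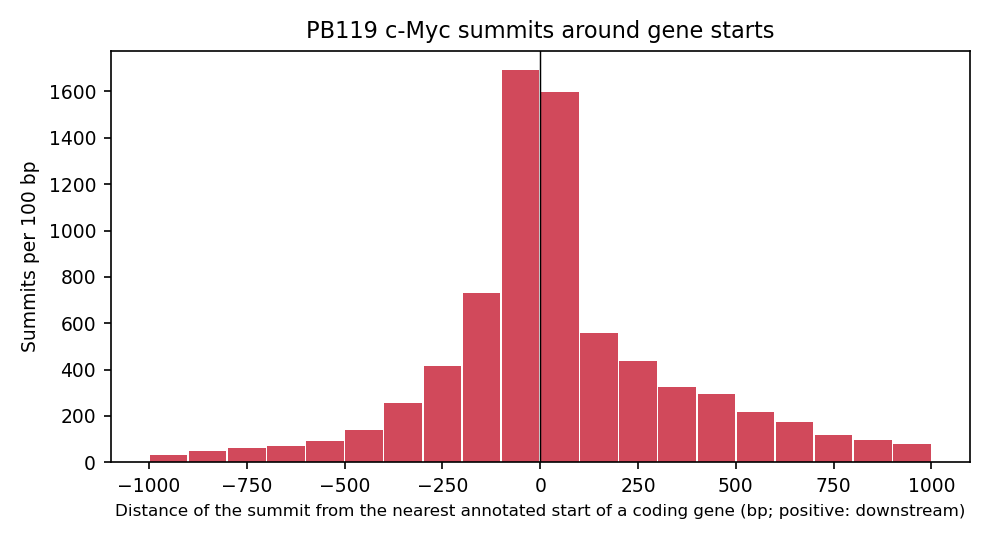
Bars count PB119 c-Myc summits per 100 bp around the nearest annotated start of a protein-coding gene, upstream at negative and downstream at positive distances in bp. Of the 7430 summits shown, 3298 lie within 100 bp of the start, and beyond 200 bp the downstream flank is the heavier one.

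Some of the strongest sites were far from any protein-coding gene end. The highest fold of the whole list, 60.9, was at chr5:142367216-142368080, with 267 ChIP fragments against 3.10 of input. It stood 33840 bp from Foxk1, a forkhead transcription factor gene, and 457 bp from the long noncoding RNA gene Gm31068. Next among sites over 5000 bp away was the summit inside Snhg15, a small nucleolar RNA host gene, with 229 fragments against 3.10 and a fold of 52.3. Pvt1, the long noncoding RNA gene beside Myc, held a summit of 189 fragments against 3.17 (fold 42.5), 47666 bp from Myc. Summits 22970 bp from Rps6ka1, a ribosomal S6 kinase gene, and 19340 bp from Nsd1, a histone methyltransferase gene, had folds of 47.1 and 41.6. One 16955 bp from Ptma, the prothymosin alpha gene, had 45.2. The last 2 of these 8 lay nearest to Zfp239 (fold 37.8) and Chd2 (37.7).

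Other strong sites lay within genes, away from their ends, and these were picked after their values were seen. Nfic, a nuclear factor I gene, had 188 fragments against 2.14 (fold 56.1) at a summit 14891 bp from its nearer end, and Larp1, which regulates mRNAs of the translation machinery, had 208 against 2.51 (55.5) 35255 bp inside. Npm1, which encodes nucleophosmin of the nucleolus, had 179 against 2.90 (fold 43) at 1749 bp. Hmga1, an architectural chromatin protein gene, had 132 against 2 (41.4) at 1272 bp, and Khdrbs1, an RNA-binding protein gene, had 153 against 2.48 (41.3) at 1343 bp. For Npm1, Hmga1 and Khdrbs1 the summit was thus just beyond the 1000 bp window.

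Noncoding genes had c-Myc at their ends too, at lower rates. A summit lay within 1000 bp of an end at 117 of 408 transfer RNA genes (28.7%), 1319 of 12727 long noncoding RNA genes (10.4%), 103 of 1228 microRNA genes (8.39%), 60 of 1340 small nucleolar RNA genes (4.48%) and 33 of 1004 small nuclear RNA genes (3.29%). Pseudogenes had 52 of 9944 (0.523%). Many of these lie close to coding genes or to each other. Away from protein-coding ends were 567 of the 1580 peaks near long noncoding RNA genes, 50 of 118 near microRNA genes and 18 of 57 near small nucleolar RNA genes. The same held for 76 of 107 near transfer RNA genes, 20 of 37 near small nuclear RNA genes and 26 of 56 near pseudogenes. Of the 5462 peaks away from protein-coding ends, 707 (12.9%) were near an end of such a gene, with a median fold of 9.18, against 8.92 for the other 4755.

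A protein-coding gene is called bound below when a summit lay within 1000 bp of one of its outermost ends, and the highest fold of its peaks there is its value. A summit at a start farther inside a gene does not make it bound. By this rule 7726 of 21887 genes were bound (35.3%), with a median fold of 11.6, and 1156 of them had a fold of 20 or more. A gene without a listed peak may still hold c-Myc, since sites that missed the authors' p cutoff were not listed. The fewest fragments at a listed summit were 19, but the number needed rose with background, and 32 against 7 of input only just passed. Neighbouring genes can share a summit: 1510 of the 8065 peaks at gene ends (18.7%) were within reach of at least 2 genes, and 2376 bound genes (30.8%) had their highest peak in common with another gene.

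Of the 30 bound genes of highest fold, 14 were in a list used below, where 875 of all 7726 bound genes are. They were 5 genes of ribosome assembly, 2 of the large ribosomal subunit, 2 cyclin and CDK genes, and 1 each from 5 other lists. Pemt, which makes phosphatidylcholine by methylation, led with 251 ChIP fragments against 3.10 (fold 57.3). Ppan, of ribosomal RNA processing, had 204 against 2.40 (56.3), and Pcbp1, a poly(C)-binding RNA regulator, had 195 against 2.31 (55.2). Klf16, which encodes a zinc finger regulator of transcription, had 196 against 2.48 (52.8) in a peak of 2401 bp, the longest at any coding gene. Mtg1, a GTPase of mitochondrial ribosome assembly, had 192 against 2.43 (52.6).

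Genes of the nucleolus and of translation followed. Rpl13a of the large ribosomal subunit had a fold of 48.9, and Ncl, which encodes nucleolin, had 227 fragments against 3.57 (46.6) in a peak of 1940 bp. Eif3b, a subunit of initiation factor eIF3, had 44.5 with 198 fragments against 3.17. Gar1, of box H/ACA ribonucleoproteins, had 43.2, and Nolc1, a nucleolar phosphoprotein gene, had 42.8. Ppp1r15b, the subunit that directs protein phosphatase 1 to eIF2 alpha, had 194 against 2.82 (47.6).

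Cell cycle and repair genes of this set were Ccne2, which encodes cyclin E2, with 153 fragments against 2.24 (fold 44.3), Cdk7 with 43.9, and Brca2, of homologous recombination, with 178 against 2.71 (45). Hdgf, a growth factor gene, had 182 against 2.47 (49.2), Trim65, a ubiquitin ligase gene, 205 against 3.10 (46.8), and Tmem185b 147 against 2.26 (42.4). Ap4m1, of an adaptor complex for vesicles, had 198 against 3.13 (44.9), with its summit 999 bp outside the gene and so just inside the window. Another 4 of the highest summits were each credited to a pair of genes: B3galt6, a galactosyltransferase gene of proteoglycan linkers, with Sdf4 (214 fragments against 2.92, fold 51.2), Ccdc146 with Fam185a (172 against 2.35, 48.1), Pigw with Myo19 (46.7), and Timm9 with 2700049A03Rik (44.7).

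Many genes held more than 1 peak, and long genes most of all. A summit inside or within 1000 bp was found at 9245 protein-coding genes, of which 2940 (31.8%) had at least 2 peaks, 842 at least 3 and 129 at least 5. Among peaks with p of 1e-20 or less, 1939 genes had at least 2. The median gene length was 22.5 kb for genes with 1 peak, 44.1 kb with 3 to 4 and 96.5 kb with 5 or more, against 12.1 kb for genes with none. The 129 genes with most peaks had a summit at an end in 66.7% of cases, against 83.4% of genes with 1 peak.

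Among the 12 genes with the most peaks, Rara, the retinoic acid receptor alpha gene, had 14, spread over 37.4 kb of its 47.1 kb and none within 1000 bp of an end. Its folds ran from 5.25 to 23.1, with the highest 42090 bp downstream of its start (98 ChIP fragments against 3). Bahcc1 had 13 peaks with folds up to 25.1, as did Nfix, a nuclear factor I gene (up to 22.4), and Gse1 (18.5). At Nfix, on chromosome 8, background was 2.15 times the genome-wide level, the highest of these 12 genes. Kdm6b, a histone H3K27 demethylase gene, had 11 peaks in 21.9 kb, the densest of the 12. Its folds ran from 6.37 to 36.3, and the strongest summit, of 153 fragments against 2.96, lay 10915 bp from the nearer end. Nfic had 8 peaks with folds from 8.97 to 56.1, of which those over its start were among the weaker, 12.3 and 9.16. Nr4a2, an orphan nuclear receptor gene, and Bcl11a, a zinc finger repressor gene, had 8 each, up to 26.2 and 25.7. Prkag2, a subunit gene of AMP-activated kinase, Aff1, of elongation complexes, and Zmiz1 had 9 each, with no fold over 21.6.

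Short genes with at least 5 peaks were looked up after the values were seen. Mnt, the gene of a repressor that competes with Myc for Max, had 6 peaks in 14.9 kb. The summit at its start held 102 fragments against 3.43 (fold 21.7), and the strongest, of 191 against 5 (29.9), lay 7018 bp downstream. Set, which encodes an inhibitor of protein phosphatase 2A, had 5 peaks in 10.6 kb with folds up to 29.1, and the clock gene Per1 had 7 in 14.9 kb up to 18.9. Ubtf, the upstream binding factor of RNA polymerase I, had 6 in 19.1 kb up to 15.2, none of them within 1000 bp of an end.

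E-boxes were more frequent in promoter windows with a c-Myc summit, most of all under the highest folds. RefSeq gave windows for 17492 of 21887 protein-coding genes, none of them on chromosome 18. Of 4274 windows with a summit inside, 16.7% held CACGTG (Wilson 95% interval 15.6 to 17.8), against 5.06% (4.71 to 5.43) of 14528 windows that no peak overlapped and 7.84% of all 21238 windows. CACGCG, on either strand, was in 29.8%, against 5.81% of windows with no peak and 12.1% of all. CAGCTG, an E-box read by other helix-loop-helix factors, was in 13%, against 17% of windows with no peak and 15.6% of all. CACGTG or CACGCG stood in 42.3% of windows with a summit, against 10.3% of those with no peak. Windows of 1 gene or of neighbouring genes can overlap and share a summit, so the intervals, which take windows as independent, may be too narrow. With 1 window per gene, 16.8% of 3960 windows with a summit held CACGTG.

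In 5 equal groups of windows from low to high fold, CACGTG was in 9.36%, 11.7%, 15%, 18.4% and 29%. CACGCG was in 43.3% of the group of highest fold and 19.8% of the lowest, and at least 1 of both motifs was in 63.5% and 26.9%. Another 7 palindromes with a central CpG were read in the same way, a comparison chosen after the values were seen. Their share in the group of highest fold was between 0.75 and 1.28 times that in the lowest, while it was 3.1 times for CACGTG. They too were more frequent in windows with a summit than in those with none, by 1.47 times for ACCGGT up to 3.47 times for TGCGCA, beside 3.3 times for CACGTG and 5.13 times for CACGCG.

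CpG content moved with c-Myc and is given beside these shares. The median window with a summit held 26 CpG, against 6 with no peak, and the 5 groups by fold had medians of 22 to 28. Of windows with fewer than 5 CpG 0.232% held a summit, against 45.7% of those with 25 to 34. Among windows with 15 to 24 CpG, CACGTG was in 17% with a summit and 7.58% with no peak, and with 25 to 34 CpG in 15.7% and 9.12%. With 35 or more it was in 16.8% and 5.8%. CACGCG itself holds 2 CpG, more than each of the other palindromes, so they are not a like comparison for it. Its shares with a summit and with no peak were 21.8% and 12.2% at 15 to 24 CpG. They were 33% and 19.2% at 25 to 34, and 47.7% and 28% at 35 or more, closer together than over all windows. The CpG classes were added after seeing the data, and other properties of the promoters were not tested.

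The motif also lay close to the summit. In windows with CACGTG and a summit, the nearest copy was within 25 bp of the summit in 344 of 713 (48.2%), at a median distance of 27.5 bp. For CACGCG this was 41.2%, at a median of 34.5 bp. For the 7 other palindromes and CAGCTG it was 13.9% to 26.3%, and of all positions in these windows 16.1% are that close. The last share is for single positions, while the nearest of all copies was taken for each motif, and of both readings for CACGCG. Of the 10 windows that held the leading summit of 1 of the 30 highest genes, 5 had CACGTG, 3 had CACGCG and 3 had neither, namely those of Brca2, Eif3b and Nop58. The windows of Timm9 and 2700049A03Rik are 2 of the 10 and hold the same summit.

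**Figure D4:**
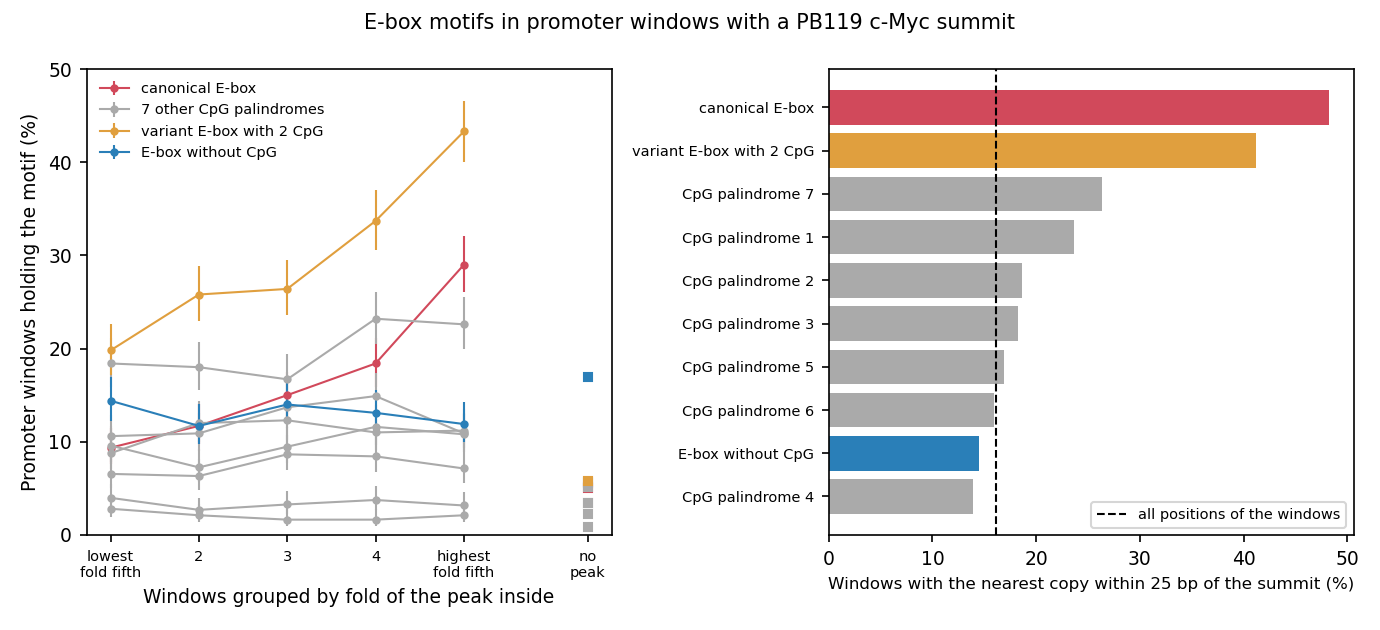
Left, percentage of 300-base promoter windows that hold a motif, for windows with a PB119 summit in 5 equal groups by authors' fold and, as squares, for windows with no peak (bars, Wilson 95% intervals). These intervals take windows as independent, although some share a summit. Right, percentage of windows with the motif and a summit in which the nearest copy is within 25 bp of the summit, with a dashed line for all positions. The canonical E-box CACGTG is at 29% in the group of highest fold and the variant CACGCG at 43.3%. On the right they reach 48.2% and 41.2%, against at most 26.3% for the other motifs, some of which also pass the dashed line. The line is for single positions, while the bars take the nearest of all copies.

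Read by function, 875 of 1127 genes in 27 lists were bound (77.6%), against 35.3% of all protein-coding genes and 33% of genes in no list. The share was above 35.3% in 25 lists. The lists were set beside all protein-coding genes and not beside genes of like promoter CpG content, which moved with binding as given above, and its part in the counts was not tested. Lists were drawn up with earlier results of these data known, so a count is a description of its list.

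Of 32 small ribosomal subunit genes 31 were bound, all but Rps2, with a median fold of 18.9, against 11.6 over all bound genes. Rps2 had a peak of fold 25.7 inside. Rps25 had 143 fragments against 2.58 (fold 37.5) at a summit shared with Trappc4, Rps19 had 30.6 and Rps10 had 30.3. Of 47 large subunit genes 43 were bound, with a median of 16.2. After Rplp0 and Rpl13a came Rpl10a with 161 against 2.59 (42) and Rpl12 with 31.4, shared with Lrsam1. Rpl17, Rpl19, Rpl22 and Rpl37a had no summit at an end, although Rpl17, Rpl19 and Rpl22 had 1 inside. Both sets have many processed pseudogenes, and reads within their exons may be split with these copies.

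Ribosome assembly and rRNA processing had the highest median fold of the 27 lists, 22.4, with 55 of 60 genes bound and 31 of them at a fold of 20 or more. Ppan, Ncl, Nop58 and Gar1 led. Ddx56, Nat10, Noc3l, Npm1 and Utp14a had no summit at an end, and all but Utp14a had a peak inside, among them that of Npm1 with a fold of 43. Of 31 RNA polymerase I and III genes 28 were bound (median 16.4), led by Gtf3c6 of TFIIIC (145 fragments against 2.82, fold 35.7), the subunits Polr1b and Polr3e (33.6 each) and Taf1c of the SL1 complex (26). Gtf3c3, Taf1b and Ubtf were not bound at an end.

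Of 46 translation factor genes 43 were bound, with a median of 18.4. After Eif3b came Eif2s3x, the gamma subunit of eIF2 encoded on the X chromosome (157 against 2.71, fold 39.8), the helicase Eif4a1 (37.6, shared with Senp3) and Eif1ad (34, shared with Banf1). Eif2b2, Eif4ebp1 and Eif5a had none at an end, though the peak inside Eif5a spanned 1885 bp and had a fold of 36.3. The peak inside Eif4ebp1 had a fold of 19.4. Of 40 aminoacyl-tRNA synthetase genes and their scaffold proteins 35 were bound (median 15). Aimp2 had 173 against 2.88 (41.9, shared with Pms2), Ears2 39.9 (shared with Ubfd1), Vars 32.6 and Tars 31.2, while Aars2, Cars, Eprs, Tars2 and Wars2 had none at an end. All of these but Cars had a peak inside, with highest folds of 29.3 at Eprs, 26 at Wars2, 7.89 at Aars2 and 6.77 at Tars2.

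Of 45 import, chaperone and genome expression genes of mitochondria 42 were bound, with a median of 13.2, and the leaders after Timm9 were the chaperone Hspa9 (34.9), the helicase Twnk (33) and Hspd1 (30.7). Hspd1 shared its summit with Hspe1, and Twnk with Mrpl43 of the mitochondrial ribosome, where 66 of 78 genes were bound (median 13.4) with Mrpl23 at 36.9. Of 54 genes of nuclear transport 46 were bound (17.4), with Xpot at 43, the GTPase Ran at 33.9, Ranbp1 at 30.5 and the importin Kpnb1 at 30.4. Of 47 chaperone genes 39 were bound (15.6), led by Hsf1, the heat shock factor (28.9, shared with Bop1), and Cct3 of the chaperonin ring (27.4, shared with Tsacc). Proteasome genes had 31 of 42 and a median of 11.7, led by Psme3 (36.4) and Psmg4 (26).

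Of 62 splicing factor and hnRNP genes 53 were bound (median 16.6). Pcbp1 led, followed by Prmt1, an arginine methyltransferase (37.6), Hnrnpr (29.2) and the SR protein gene Srsf2 (28.8, shared with Mfsd11). In this list Hnrnpf and Srsf1 had no summit at an end but folds of 39.9 and 31.3 at peaks inside, and they are named after their values were seen.

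Metabolic genes were bound across several pathways. Of 34 purine and pyrimidine genes 30 were bound (median fold 15.2). The nucleoside diphosphate kinase Nme2 had 153 fragments against 2.64 (39.5), Atic, of the last steps to IMP, 167 against 3.20 (37.3), and Cad, which starts pyrimidine synthesis, 162 against 3.23 (36, shared with Atraid). Paics and Ppat, neighbours that both act in purine synthesis, shared a summit of 156 against 3.38 (33.4). Of 28 polyamine, serine and one-carbon genes 23 were bound (14.2), with Srm, spermidine synthase, at 41.5, Mat2a, which makes S-adenosylmethionine, at 40.2, Mthfd1l at 34.5 and Odc1, ornithine decarboxylase, at 27.1.

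Of 21 genes of glutamine use and amino acid transport 17 were bound, with the second highest median of all lists, 19.8. They were led by the cationic amino acid transporter Slc7a1 (169 against 3.81, fold 33), Aldh18a1 of proline synthesis (28.4), glutamine synthetase Glul (28.3) and the glutamine transporter Slc1a5 (25.4). Slc7a11, the cystine transporter gene, had no summit at an end or inside. Of 25 glycolysis genes 18 were bound with a median of 11.1, but 11 with a window of 500 bp. Among the 18 were hexokinase Hk2 (126 against 2.74, 31.7), the lactate transporter Slc16a1 (25), Pgam1 (24.2) and Pfkl (21.8). Ldha, lactate dehydrogenase A, was not bound at an end and had a peak of fold 36.7 farther inside, a value looked up after it was seen.

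Of the cell cycle lists, 32 of 40 cyclin, CDK and E2F genes (median fold 13.7), 37 of 48 replication genes (10.8) and 25 of 37 mitotic genes (9.93) were bound. After Ccne2 and Cdk7 came Tfdp1, the partner of E2F factors (161 against 3.40, 34.4), and Cks2 (31.9), whose summit lay 993 bp beyond the far end and was shared with Secisbp2. The replication list was led by Pole4 (28.1), topoisomerase Top1 (27.6), Orc5 (26) and Pold2 (23.3). The mitotic list was led by the kinesin Kifc1 (118 against 2, 37), Aurora kinase Aurka (31.5, shared with Cstf1), survivin Birc5 (25.8) and the checkpoint kinase Bub1b (19.7).

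The Myc network itself was bound in part. Of 25 genes 17 were bound, with a median of 17. Max had 77 ChIP fragments against 3 (18.2), and its other partners were Mnt (21.7), Mxd3 (67 against 2.31, 19.2), Mxd4 (17), Mga (17) and Mxi1 (15.3). The cofactor Kat2a, an acetyltransferase, was highest with 118 against 2.45 (32.2). Mlxip had 106 against 2.83 (26) and Usp28, a deubiquitinase that stabilises Myc, 76 against 2.33 (21.6). Ruvbl1 had 20.2, Set 19.4, Pim1 15.2, Fbxw7 11, Cip2a 10.8 and Zbtb17, the Miz-1 gene, 8.04. Trrap and Huwe1 had 5.8 and 5.76 at their ends and higher peaks farther in, with folds of 10.7 at 1007 bp and 13 at 2555 bp. Mga, Mxi1, Mnt and Set also had a higher peak inside, with folds of 21.2, 17.7, 29.9 and 29.1. Myc, Mycn, Mycl, Mxd1, Mlx, Mlxipl and Kat5 had no summit inside or within 1000 bp, and Ruvbl2 had 1 inside. Unbound members of this list and of the lineage and cell marker lists below are named after their values were seen.

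Clock genes, many of them under E-box control in the circadian oscillator, were bound in 20 of 24 cases (median 15.3). Ciart, a repressor of the clock, had 129 fragments against 2.57 (34), the nuclear receptors Nr1d1 and Nr1d2 had 189 against 5.50 (27.3) and 82 against 2.65 (21.2), and Dbp had 89 against 2.95 (21.3, shared with Car11). Arntl, Arntl2, Csnk1e and Npas2 had none at an end. With summits inside genes counted, 22 of the 24 clock genes had one. Lysosome and autophagy genes had 37 of 48 bound with a median of 11, led by Map1lc3b (23) and the proton pump subunits Atp6v1d (22.5, shared with Eif2s1) and Atp6v1c1 (21.2). Chromatin genes had 54 of 74 (13.1), led by Pbrm1 (38.5, shared with Gnl3), Kmt2c (38) and Brd2 (34.2). The Sp and Klf list had 14 of 26 (12.9), where Klf13 (23.6) and Klf9 (20.6) followed Klf16.

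Of 39 genes of the p53 and RB axis and of apoptosis 23 were bound (median 12.7). Cdkn2a, which encodes p16 and p19Arf, had 101 fragments against 2.38 (28.1). Cdkn2d, another CDK inhibitor gene, had 26.6 at a summit shared with Kri1 and 513 bp beyond its far end. Gadd45g had 17.9, and Trp53 had 150 against 7 (17.6) at a summit shared with its antisense neighbour Wrap53.

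Lineage genes of small cell lung cancer and markers of other cell types were bound least. Of 40 lineage and neuroendocrine genes 13 were bound (32.5%, beside 35.3% of all coding genes), with a median fold of 11.4. Notch2, a Notch receptor, had 122 fragments against 3.16 (27.6) and Nfib, a nuclear factor I gene amplified in this cancer in mice, 88 against 2.43 (24.3). The other 11 were Id3 (14.2), Sox2 (12.5), Id1 (12.3), Ncam1 (12), Yap1 (11.4), Uchl1 (10.6), Hes1 (10.3), Rest (10.2), Jag2 (8.46), Jag1 (8.32) and Hes6 (8.22). Both Notch ligand genes had a stronger peak farther inside: Jag1 had 127 fragments against 2.58 (fold 33.4) at 2178 bp downstream of its start, above the values of Notch2 and Nfib, and Jag2 had 55 against 1.98 (17.5) at 1223 bp. With summits inside genes counted, 18 of the 40 had one (45%), beside 42.2% of all coding genes. Those added were Nkx2-1 (13.4), Dll3 (12.8), Foxa1 (9.78), Scg3 (8.41) and Notch1 (8.26). No summit lay inside or within 1000 bp of the rest of this list, among them Neurod1, Insm1, Pou2f3, Chga and Syp.

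Of 37 markers of lung epithelium, mesenchyme and immune cells 4 were bound: Col1a1 (37 fragments against 3.51, 7.87), Vim (33 against 3.34, 7.32), Scgb1a1 (38 against 4.23, 6.97) and Cd68 (44 against 8, 4.67). The Cd68 summit was also within 1000 bp of Eif4a1. The count was 2 among peaks with p of 1e-20 or less, and 7 with summits inside genes counted. Surfactant genes, Epcam, Cdh1, Ptprc and Pecam1 had none inside or at an end. Binding near a gene does not show its expression, so these lists do not test the cell type on the label.

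**Figure D5:**
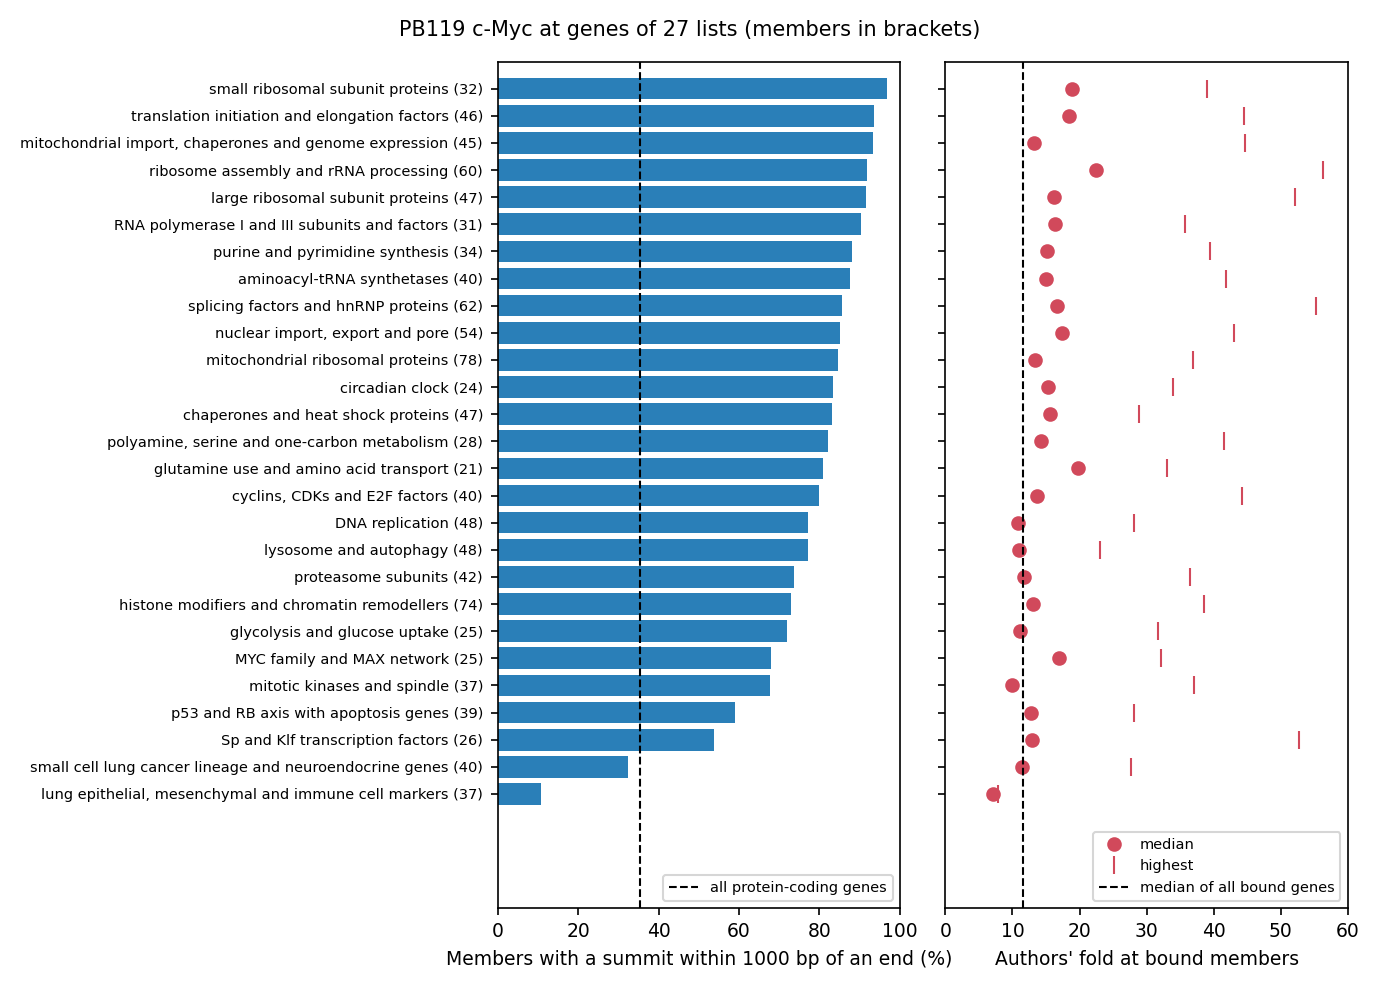
Left, percentage of the members of each of 27 gene lists (number of members in brackets) with a PB119 summit within 1000 bp of an end, with a dashed line at 35.3% for all protein-coding genes. Right, median (circle) and highest (tick) authors' fold over the bound members, with a dashed line at 11.6, the median of all bound genes. Small ribosomal subunit genes stand at the top with 31 of 32 bound, ribosome assembly has the highest median of 22.4, and the 2 lineage and cell marker lists stand left of the dashed line.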

How the data were processed

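c-Myc ChIP and input were sequenced from PB119, and the authors deposited a peak list called on this ChIP alone against that input. The submitters' processing notes name Bowtie, SAMtools and MACS2 with build mm10, without versions for the first pair. Per the file headers, MACS 2.1.0.20140616 was run with a p cutoff of 1e-10, fragments of 141 bp, tags of 50 bases, at most 1 tag per position and an effective genome of 2.70e+09 bp. After that filter the ChIP held 40726886 of 41621398 tags and the input 37979638 of 38969003. The deposited pileup is a signal, ChIP coverage at the summit scaled by the authors to input depth, and the deposited fold is a ratio to local background with 1 added to both. The deposited −log10 p-value is the authors' Poisson test. It was used only as a filter, and −log10 q-values were not used. MACS takes as background the largest of the genome-wide level and local levels, which here include averages over 1000 and 10000 bp.

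ChIP fragments were pileup times the tag ratio of 1.07, which gave numbers whole within 0.02 at 100% of peaks. Input background was (pileup + 1)/fold − 1. The p-value recomputed from the deposited pileup, rounded down, and this background differed from the authors' by a median of -2.22e-05 on the −log10 scale. Genes were 21887 protein-coding and 28056 other RefSeq genes on GRCm38.p6, coordinates counted from 1. Strand came from the promoter table where it had the gene, so either end was used. Motifs were searched as letters on both strands. Analyses ran in Python 3.11.15 with pandas 2.3.3 and scipy 1.17.1. The steps that place peaks relative to genes were tested on simulated peaks, and the other steps were not. No test was run, since there were no replicates.

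Members and lists were chosen with earlier results of these data known. Of 1133 list entries 3 symbols were unmatched and 1 matched by a synonym. Named were the 30 genes of highest fold, the 4 highest bound members of each list and its unbound members where at most 5, all bound members of the Myc network and lineage and cell marker lists, the 12 genes with most peaks, the 8 longest peaks and the 8 of most fragments, highest background or highest fold over 5000 bp from a gene, and the 5 of lowest −log10 p. A few genes that this rule takes are not reported here. Alternatives were a stricter p, a background limit, windows of 500 and 5000 bp, overlap of the whole peak, summits inside genes and starts alone.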

Additional observations from a re-analysis of the deposited data

How the results depend on the processing

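The share of summits at gene ends was 59.6%, and it was 61.5% for peaks with p of 1e-20 or less, 61% for backgrounds up to 3 times genome-wide, 49.6% with 500 bp, 74.6% with 5000 bp and 61.5% with overlap of the whole peak. Bound genes numbered 6576 to 9310 over all alternatives, beside 7726. Genes with several peaks numbered 2940, and 1939 at p of 1e-20, over 1.5 times fewer. Of genes in lists 77.6% were bound, 72% at p of 1e-20, 70.3% with 500 bp, 85.1% with 5000 bp and 85.3% with summits inside genes counted. The number of lists above the share of all coding genes was 25 of 27 in 4 alternatives, and 26 with 5000 bp or with summits inside counted, where the lineage list was above it. Median fold was 9.8, 11.2 at p of 1e-20 and 10 with limited background. CACGTG stood in 16.7% of windows with a summit and in 18.4% at p of 1e-20, and its share in windows of highest fold exceeded that of lowest fold in each of 4 alternatives added after seeing the data, including groups by ChIP fragments (30.8% and 8.89%). Leaving out chromosome 8, also added then, gave 59.5% and a fold of 9.81. No replicate could be left out. No paired analysis was possible because there was 1 ChIP and 1 input library. Input background had a median of 3 fragments. Where it was a whole number of fragments, at 31.1% of peaks, so low a count limits the precision of folds. Elsewhere background was not a whole number, and its precision was not worked out.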

Other observations

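Large receptor families were nearly without c-Myc peaks in PB119. No olfactory receptor gene (symbols starting with Olfr) was bound, 0 of 1110, and of vomeronasal receptor genes (Vmn1r and Vmn2r) 1 of 353 was bound. The count of 0 allows a share of up to 0.27% only if genes are taken as independent draws, which genes of a family are not. Zinc finger genes with symbols starting with Zfp were bound in 154 of 397 cases (38.8%), near the 35.3% of all protein-coding genes. These families were looked at after the list counts were seen.

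The weakest listed peaks by p-value were short and had few fragments. A peak of 141 bp, 10011 bp from the microRNA gene Mir23a and 12435 bp from Zswim4, had 32 ChIP fragments against 7 of input (fold 3.86). One inside Aak1, a kinase gene, had the same counts, and one 57 bp from an end of Hltf, a DNA translocase gene, had 21 against 3 (fold 5.15). Those nearest to Camk2b and Prr14l had 30 against 6 each (4.14).

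Other peaks of unusual length were 2145 bp inside Gm20783 (103 ChIP fragments against 3, fold 24.3), 2134 bp inside Tfap4, the gene of a helix-loop-helix factor (139 against 2.78, 34.6), 2056 bp at Hnrnpdl (78 against 3.10, 18) and 1961 bp beside Ptma (90 against 2.92, 21.7). Among summits with most fragments, those at Uspl1 (241 against 6, fold 32.2) and Tbrg4 (219 against 4, 41) lay 36 and 23 bp from a gene end.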
